A study of Mus musculus with 16 samples.

Results

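The human miRNAs hsa-miR-765, hsa-miR-711, hsa-miR-601 and hsa-miR-1226-5p were followed in the culture supernatant of X-irradiated HCT116 cells, an established human colorectal carcinoma line. They were taken by name from the array files and had been selected on their levels, which were higher at both 2 and 6 Gy than at 0 Gy. The 2 and 6 Gy values therefore describe the choice and carry no test here. All 4 were among the 283 human miRNAs that gave a testable signal, of 1205 human miRNAs on the array. Cells received 0, 2, 6 or 10 Gy of X-rays at a high dose rate and supernatant was taken 72 h later. The medium, RPMI1640 containing fetal bovine serum at 10%, was the same for all cultures, the unirradiated ones included. Each dose had 4 independent cultures and 1 single-colour Agilent miRNA array per culture, 16 arrays in all. The labels name mouse as the organism, whereas the cell line and the probes are human, and the values were read as those of human miRNAs.

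miRNAs are short RNAs that guide Argonaute proteins to partly complementary transcripts and lower their translation or stability. Cells also release them in vesicles or bound to proteins, which is why they can be measured in culture medium. Most are cut from hairpins by Drosha and Dicer in turn. A mirtron is an exception: its hairpin is a whole short intron set free by splicing, and Drosha is bypassed. miR-1226-5p is the arm from the start of such an intron, in the helicase gene DHX30. The precursor of miR-601 lies within DENND1A, an endocytic Rab exchange factor gene, and that of miR-711 within the type VII collagen gene COL7A1. In mouse neurons miR-711 has been described as rising after irradiation and restraining DNA repair, and miR-601 has been studied as a plasma marker in colorectal cancer.

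Levels are given as log2 of an array's probe signal divided by that array's 75th percentile over its commonly detected probes. They can be compared between arrays for 1 miRNA, not between miRNAs. Supernatant levels cannot tell the number of releasing cells from the amount released per cell. The 4 doses lay on 2 slides with a scan each, 0 and 2 Gy on slide 1 and 6 and 10 Gy on slide 2, so that for 6 or 10 Gy against 0 Gy dose and slide cannot be told apart, while 2 against 0 Gy and 10 against 6 Gy lie within a slide. Arrays detected 242 to 358 human miRNAs. Replicate 3 at 0 Gy and replicate 2 at 2 Gy stood apart, with median correlations over the 283 miRNAs of 0.906 and 0.942 with the arrays of their own dose, against 0.959 to 0.998 for the other 14, and results are given with and without them.

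All 10 probes of the 4 miRNAs were detected on all 16 arrays, so none entered the tests through its high doses alone. Before scaling, the mean probe signal over the 16 arrays had a median of 565.2 intensity units for miR-601 (range 247.3 to 899.8), 361.6 for miR-765 (149.6 to 823.4), 292.2 for miR-1226-5p (159.4 to 488.2) and 47.3 for miR-711 (23.1 to 104.8), the dimmest. Each probe was printed as 10 or 20 spots, of which 7 to 20 were used. The spots of 1 array placed a miRNA's level with a median standard error of 0.0091 to 0.021 on the log2 scale, well below the standard deviations between cultures given below.

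miR-765 had levels of -1.61, -1.25, -1.13 and -1.35 in the 4 cultures at 0 Gy. They were -0.52, -0.71, -0.45 and -0.36 at 2 Gy, and -0.97, -0.79, -1.004 and -0.13 at 6 Gy. At 10 Gy they were -0.64, -1.06, -0.76 and -0.55. Every irradiated culture lay above every unirradiated one, and replicate 4 at 6 Gy was the highest of all. Taken singly, 7.07%, 5.65% and 9.89% of all tested miRNAs stood so apart at 2, 6 and 10 Gy. The share doing so at every irradiated dose was not counted. The means were -1.33 ± 0.21, -0.51 ± 0.14, -0.72 ± 0.41 and -0.75 ± 0.22 at 0, 2, 6 and 10 Gy (SD, n = 4 each). The irradiated doses overlapped one another, and only 0 Gy stood outside their range. In the fit over all arrays 2 Gy differed from 0 Gy by 0.82 ± 0.18 and 6 Gy by 0.61 ± 0.18 (SE). These correspond to 1.77-fold and 1.53-fold. The 6 Gy difference was 0.43 without replicate 4 at 6 Gy.

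miR-711 had levels of -3.92, -4.09, -3.43 and -4.07 at 0 Gy. At 2 Gy they were -3.21, -3.55, -3.14 and -3.17, at 6 Gy -3.26, -3.46, -3.44 and -2.70, and at 10 Gy -3.29, -3.68, -3.41 and -3.29. Here the doses overlapped: replicate 3 at 0 Gy, one of the arrays that stood apart, reached into the irradiated range. The means were -3.88 ± 0.30, -3.27 ± 0.19, -3.22 ± 0.35 and -3.42 ± 0.19 at 0, 2, 6 and 10 Gy (SD, n = 4 each), above the floor of -4.60 put under dim signals. The differences from 0 Gy were 0.61 ± 0.18 at 2 Gy and 0.66 ± 0.18 at 6 Gy (SE), and 0.76 and 0.81 without replicate 3 at 0 Gy. With normexp background correction of the raw spots its 2 and 6 Gy differences were 0.15 and 0.14.

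miR-601 had levels of -0.49, -0.01, 0.01 and -0.03 at 0 Gy, where 3 cultures were close together and replicate 1 lay well below. The levels were 0.43, 0.28, 0.25 and 0.34 at 2 Gy, 0.22, 0.44, 0.25 and 0.50 at 6 Gy, and 0.42, 0.23, 0.28 and 0.34 at 10 Gy. All 12 irradiated cultures lay above the 4 unirradiated ones, within a band from 0.22 to 0.50. As for miR-765, the share of all miRNAs doing so at every irradiated dose was not counted. The means were -0.13 ± 0.24, 0.32 ± 0.08, 0.35 ± 0.14 and 0.32 ± 0.08 at 0, 2, 6 and 10 Gy (SD, n = 4 each). The 3 irradiated doses therefore had nearly the same mean. Their differences from 0 Gy were 0.45 ± 0.11 at 2 Gy and 0.48 ± 0.11 at 6 Gy (SE).

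miR-1226-5p, the mirtron arm, had levels of -1.13, -0.96, -0.99 and -0.76 at 0 Gy. They were -0.40, -0.55, -0.54 and -0.44 at 2 Gy, -0.81, -0.48, -0.57 and -0.39 at 6 Gy, and -0.47, -0.58, -0.56 and -0.43 at 10 Gy. All cultures at 2 and 10 Gy lay above those at 0 Gy, whereas replicate 1 at 6 Gy fell among them. The means were -0.96 ± 0.15, -0.48 ± 0.08, -0.56 ± 0.18 and -0.51 ± 0.07 at 0, 2, 6 and 10 Gy (SD, n = 4 each), with the irradiated doses overlapping one another. The 2 and 6 Gy differences from 0 Gy were 0.48 ± 0.10 and 0.40 ± 0.10 (SE). Its partner arm, miR-1226-3p, was detected on 0 of the 16 arrays.

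Counted over the miRNAs, every culture at 2 Gy lay above every culture at 0 Gy for 3 of the 4, all but miR-711, where 7.07% of all tested miRNAs did so. At 6 Gy this held for miR-765 and miR-601, against 5.65% of all. Both counts were fixed in part by the choice of the miRNAs. Within slide 1 alone the 2 Gy differences were 0.88, 0.67, 0.51 and 0.53 for miR-765, miR-711, miR-601 and miR-1226-5p. Without the pair of arrays that stood apart they were 0.96, 0.85, 0.51 and 0.49 at 2 Gy, and 0.68, 0.81, 0.53 and 0.39 at 6 Gy.

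**Figure D1:**
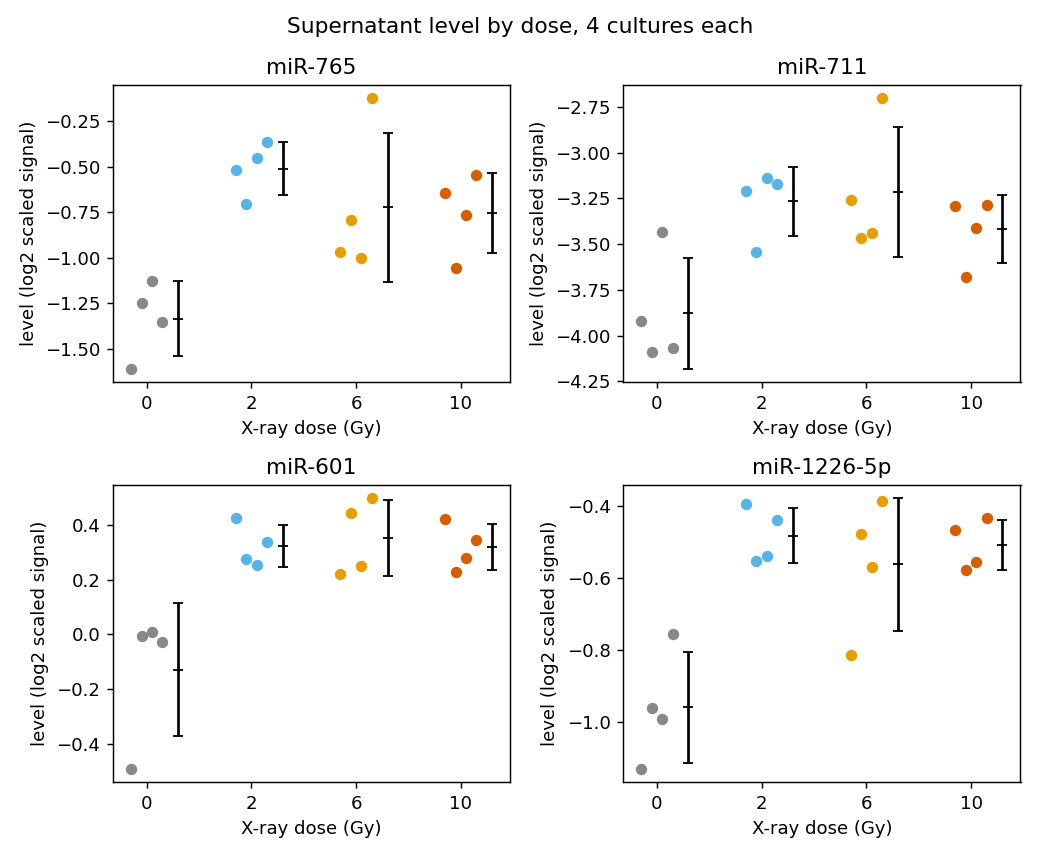
Level of each miRNA (log2 of scaled signal, vertical axis) against X-ray dose in Gy (horizontal axis), with 1 point per culture and the mean ± SD of 4 cultures beside the points. All 12 irradiated cultures lie above all 4 unirradiated ones for miR-765 and miR-601. miR-711 overlaps 0 Gy at every irradiated dose, and miR-1226-5p at 6 Gy alone.

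The level at 10 Gy was not a criterion in the choice of the miRNAs. The question was whether the same miRNAs also stood higher at the highest dose. The 10 Gy arrays did enter the fit behind the 2 and 6 Gy calls, through its shared spread, the scaling and the filter. Without replicate 1 at 10 Gy, limma called 18 miRNAs at 6 Gy, against 55 with it. The 0 Gy cultures were compared directly in the choice, so the comparison of 10 with 0 Gy is not independent of it. miR-765 was 0.58 higher at 10 Gy than at 0 Gy on the log2 scale (SE 0.18, 95% interval 0.19 to 0.97), or 1.50-fold, with an adjusted p = 0.0822 in limma. The difference was 0.46 for miR-711 (SE 0.18, interval 0.07 to 0.85, adjusted p = 0.161), 0.45 for miR-601 (SE 0.11, interval 0.21 to 0.69, adjusted p = 0.0552) and 0.45 for miR-1226-5p (SE 0.10, interval 0.23 to 0.67, adjusted p = 0.0530). None of the 4 passed the threshold of 0.05 after Benjamini-Hochberg adjustment over the 283 miRNAs, and all 4 had an unadjusted p under it. In the same comparison 1 of 283 miRNAs was called (0.353%) and 63 had an unadjusted p under 0.05. Every culture at 10 Gy lay above every culture at 0 Gy for 3 of the 4 miRNAs, miR-765, miR-601 and miR-1226-5p, against 9.89% of all tested miRNAs. For miR-711, 3 of the 4 cultures at 10 Gy did so. Counted from the largest rise down to the largest fall, the 4 ranked 3rd (miR-765), 9th (miR-711), 11th (miR-1226-5p) and 13th (miR-601) of 283. Their median difference was 0.46, against -0.02 over all 283.

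These calls turned on the arrays included and on the processing. Of 29 alternatives, miR-765 passed in 5, miR-711 in 3, miR-601 in 10 and miR-1226-5p in 14. None of the 4 passed without replicate 1 at 0 Gy (limma adjusted p = 0.0916 to 0.374) or with Agilent's total signal (0.0795 to 0.247). Without replicate 3 at 0 Gy all 4 passed, with adjusted p-values of 0.0242 for miR-765, 0.0196 for miR-711, 0.00907 for miR-601 and 0.0113 for miR-1226-5p, in a fit that called 29% of its miRNAs, and without both arrays that stood apart all 4 passed again in a fit that called 37.9%. With scaling over all probes (7.77% of all miRNAs called) or quantile normalization (9.54%), miR-765, miR-601 and miR-1226-5p passed. miR-601 and miR-1226-5p passed with the brightest probe of each miRNA (3.18%), a lower floor (3.18%), probes detected on all arrays (3.23%), the slide row as a block (3.89%) or without replicate 2 at 0 Gy (3.89%). miR-1226-5p alone passed without replicate 3 at 2 Gy (1.34%) and without replicate 1 (0.707%) or 3 (1.35%) at 6 Gy. With normexp background correction the difference of miR-711 was 0.24 and none of the 4 passed (limma adjusted p = 0.121 to 0.489). Without scaling between arrays the differences at 10 Gy were 0.34, 0.22, 0.21 and 0.21 for miR-765, miR-711, miR-601 and miR-1226-5p, where the median of all miRNAs moved to -0.23, and 0 miRNAs were called by limma (22 at an unadjusted p under 0.05).

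**Figure D2:**
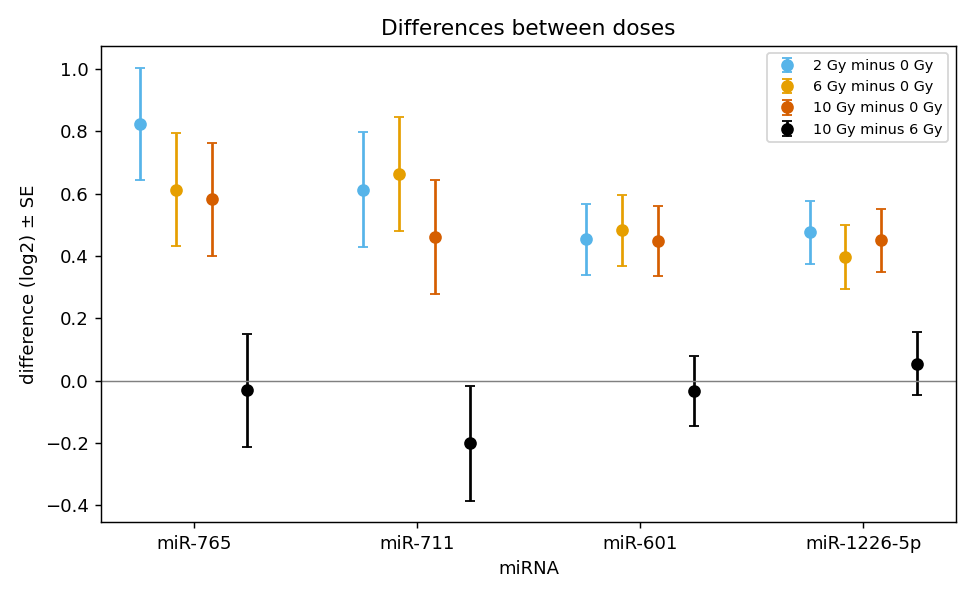
Difference in level between doses (log2, vertical axis, with SE bars) for each miRNA (horizontal axis), in the order 2, 6 and 10 Gy against 0 Gy and 10 against 6 Gy. All 12 differences from 0 Gy are above 0, between 0.40 and 0.82, and the 4 differences between 10 and 6 Gy lie between -0.20 and 0.05. The miRNAs were chosen for being higher at 2 and 6 Gy.

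Between 10 and 6 Gy, which share slide 2, none of the 4 miRNAs passed the test. miR-765 differed by -0.03 (95% interval -0.42 to 0.36), miR-711 by -0.20 (-0.60 to 0.19), miR-601 by -0.03 (-0.28 to 0.21) and miR-1226-5p by 0.05 (-0.16 to 0.27). Adjusted p-values ran from 0.469 to 0.916 in limma, and 0 of 283 miRNAs were called (42 at an unadjusted p under 0.05, none of them 1 of the 4). These intervals do not show that the 2 doses were alike. The cultures at 10 Gy overlapped those at 6 Gy for all 4, while 8.13% of all miRNAs had every culture at 10 Gy above every one at 6 Gy. The 6 Gy cultures had been used to choose the miRNAs, so this comparison is not independent either.

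For the choice itself, limma had called 12.7% of the 283 miRNAs at 2 Gy and 19.4% at 6 Gy, 6.01% as higher at each dose. In all, 5 miRNAs were called higher at both doses, these 4 and miR-134-5p. The larger of the 2 adjusted p-values was 0.0304 for both miR-134-5p and miR-601. It was 0.0341 for miR-1226-5p, 0.0407 for miR-765 and, just inside, 0.0417 for miR-711. The next miRNAs outside were miR-483-5p and miR-516a-5p, both at 0.0514. The calls behind the choice depended on single arrays. Without replicate 1, 2 or 4 at 0 Gy, or replicate 4 at 6 Gy, 0 miRNAs were called at 6 Gy. Without replicate 1 or 4 at 2 Gy, 0 were called at 2 Gy. Without replicate 3 at 0 Gy, 158 of 317 were called at 2 Gy and 185 at 6 Gy. Leaving out any other array gave counts in between. At 2 Gy the differences ranked 2nd (miR-765), 9th (miR-711), 19th (miR-1226-5p) and 21st (miR-601) of 283, counted from the largest rise down to the largest fall. Comparisons with 2, 6 and 10 Gy share the 0 Gy arrays, so that their values stand side by side and do not add to each other.

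**Figure D3:**
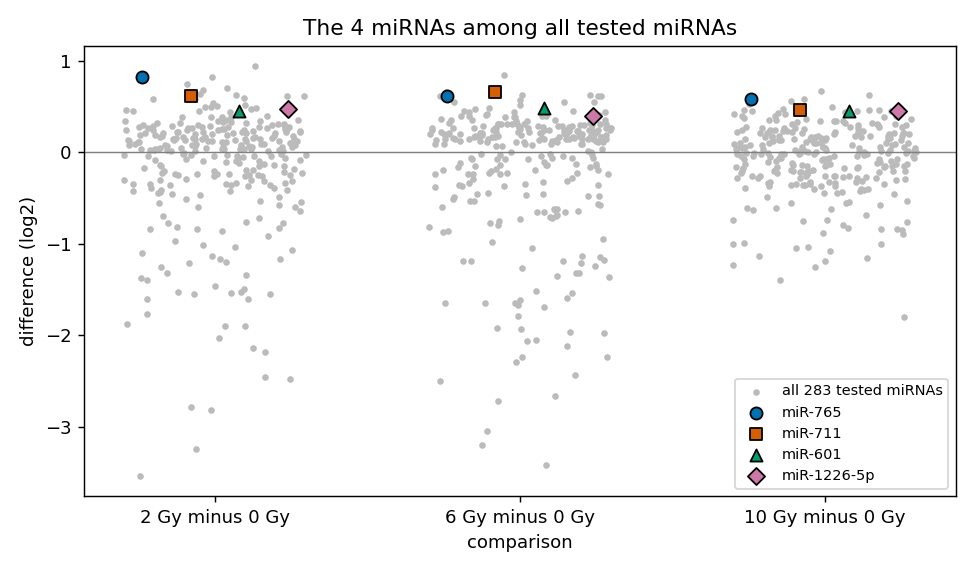
Difference from 0 Gy (log2, vertical axis) of all 283 tested miRNAs (grey points) and of the 4 miRNAs (coloured symbols) at 2, 6 and 10 Gy (horizontal axis). The 4 lie in the upper part of each cloud, whose falls reach further from 0 than its rises.

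All probes of the 4 miRNAs had higher means at each irradiated dose than at 0 Gy. At 2 and 6 Gy the choice of the miRNAs fixed this in part, since a miRNA's level is the mean of its probes. The 2 probes of miR-765 had median signals of 112.2 and 612.5 intensity units, and their differences from 0 Gy were 0.77 and 0.88 at 2 Gy, 0.54 and 0.68 at 6 Gy, and 0.55 and 0.61 at 10 Gy. The 4 probes of miR-601 gave 0.42 to 0.48 at 10 Gy and the 2 of miR-1226-5p gave 0.48 and 0.42. In all 8 of these probes each culture at 10 Gy lay above each at 0 Gy. The share of all probes that did so was not counted, and among all tested miRNAs it was 9.89%. These probes restate the result for miR-765, miR-601 and miR-1226-5p. The 2 probes of miR-711 differed more, with 0.72 and 0.50 at 2 Gy, 0.75 and 0.58 at 6 Gy, and 0.51 and 0.41 at 10 Gy. In these, 2 and 3 of the 4 cultures at 10 Gy lay above all at 0 Gy. Probes of 1 miRNA share its RNA and its array, so their agreement is one of measurement and not of cultures.

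**Figure D4:**
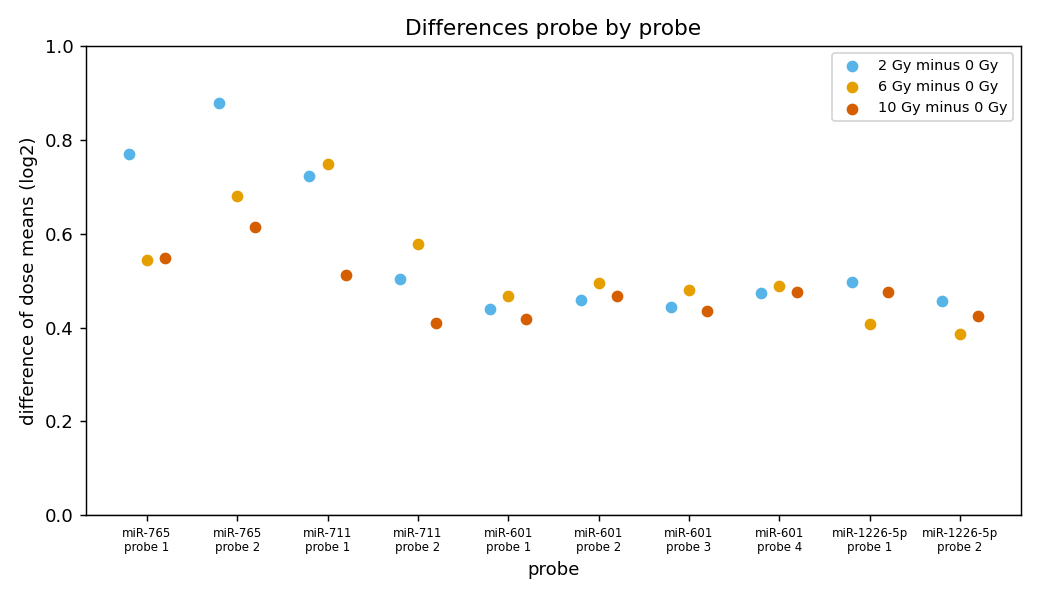
Difference of dose means from 0 Gy (log2, vertical axis) for each of the 10 probes (horizontal axis) at 2, 6 and 10 Gy. All 30 differences are above 0, from 0.39 to 0.88. Those at 2 and 6 Gy were fixed in part by the choice of the miRNAs.

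The 4 miRNAs had been chosen for the same shift between doses, which in part fixes their correlations with each other. Over the 16 arrays, which share dose, slide and scaling, Pearson's r was 0.91 for miR-601 with miR-1226-5p and 0.89 for miR-765 with miR-711. It was lowest, at 0.67, for miR-711 with miR-1226-5p. With the dose means removed, as a description, r was 0.75 for miR-601 with miR-1226-5p, 0.80 for miR-765 with miR-711, and 0.34 and 0.22 for miR-711 with miR-601 and with miR-1226-5p. The dim miR-711 thus followed miR-765 among cultures of 1 dose more closely than it followed the other two.

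The labelling spike-in, an RNA added when samples are labelled, was lower where miR-711 was higher. Its log10 signal averaged 1.91 ± 1.75, 1.45 ± 0.81, 0.81 ± 1.16 and 2.22 ± 0.38 at 0, 2, 6 and 10 Gy (SD, n = 4 each), and lay in the software's accepted range on 3 of 16 arrays. Over the 16 arrays its correlation with the miR-711 level was r = -0.70 (permutation p = 0.00261, adjusted 0.0209 over 8 relations) and Spearman's coefficient was -0.72 (permutation p = 0.00221, adjusted 0.0177). It was -0.62 on slide 1, -0.90 on slide 2, -0.83 with dose means removed and -0.72 with the 2 arrays of most extreme spike-in left out. For miR-765 r was -0.48 (permutation p = 0.0602, adjusted 0.241) and the rank coefficient by Spearman -0.56 (adjusted 0.0859), with -0.39 and -0.64 on the 2 slides and -0.59 without those 2 arrays. miR-601 had r = -0.40 (permutation adjusted p = 0.312) and miR-1226-5p -0.18 (adjusted 0.617), with Spearman's coefficients of -0.54 (adjusted 0.0859) and -0.46 (adjusted 0.148). On slides 1 and 2 these r were -0.46 and -0.45 for miR-601 and -0.21 and -0.05 for miR-1226-5p, and without the 2 most extreme arrays they were -0.61 and -0.46. With dose means removed r was -0.64 for miR-765, -0.52 for miR-601 and -0.17 for miR-1226-5p. The spike-in was at its lowest, -0.70, on replicate 3 at 0 Gy and replicate 4 at 6 Gy. Both hold the identical value of -0.69897, and whether that is a measured signal or a set lower limit was not tested. They are the 2 most extreme arrays left out above, and the covariate fit below was not run without them. On both arrays miR-711, miR-765 and miR-601 were highest for their dose, and miR-1226-5p was so on replicate 4 at 6 Gy alone. With the spike-in as a covariate the 10 Gy differences were 0.63, 0.52, 0.47 and 0.46 for miR-765, miR-711, miR-601 and miR-1226-5p, and all 4 passed (limma adjusted p = 0.0107 to 0.0129) in a fit that called 20.8% of miRNAs. In that fit the differences were 0.76, 0.52, 0.42 and 0.47 at 2 Gy and 0.45, 0.45, 0.41 and 0.38 at 6 Gy for the miRNAs in the same order, all lower than without the covariate. The part of the spike-in in the differences was not tested otherwise. No relation of the 4 levels to the unscaled 75th percentile of an array passed the test (r from -0.02 to 0.27, permutation adjusted p from 0.617 to 0.940).

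**Figure D5:**
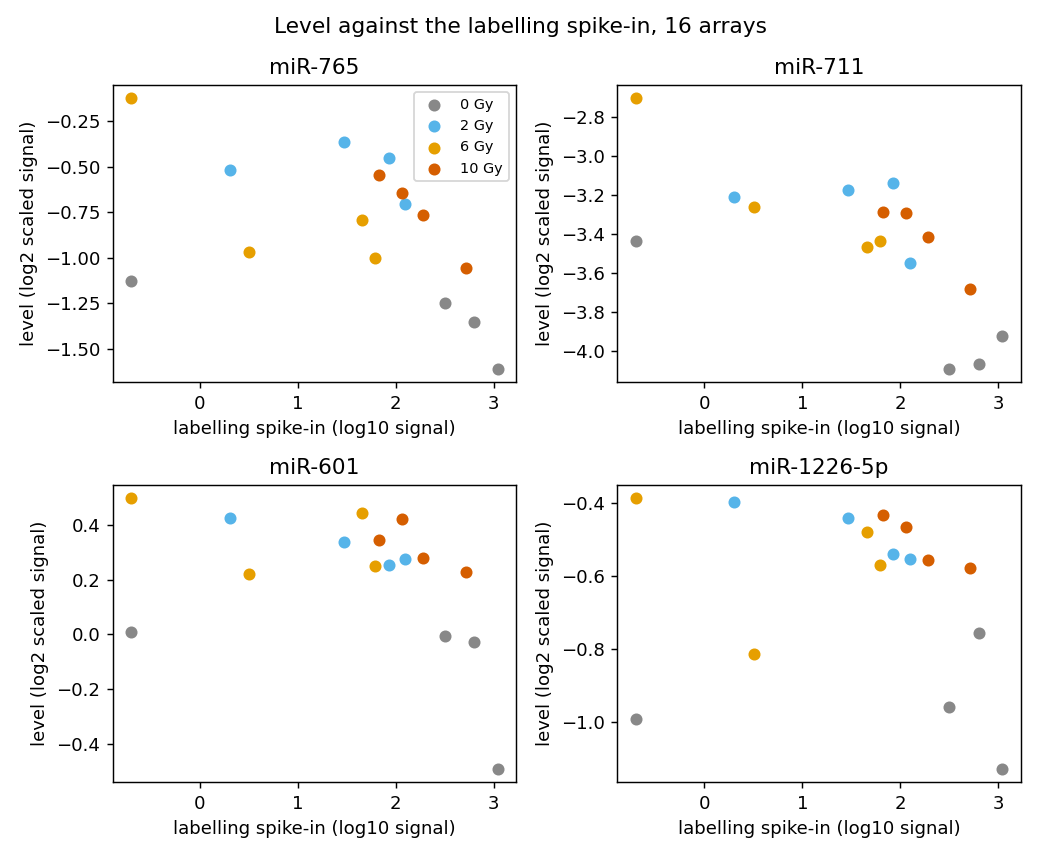
Level of each miRNA (log2 of scaled signal, vertical axis) against the labelling spike-in (log10 signal, horizontal axis), with 1 point per array coloured by dose. miR-711 falls as the spike-in rises (r = -0.70 over 16 arrays), and miR-1226-5p shows the weakest relation (r = -0.18).

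The miRNAs whose levels were most like those of miR-765 over the 16 arrays were miR-30c-2-3p (r = 0.97), miR-516a-5p (0.96) and miR-483-5p (0.95), whose precursor lies in an IGF2 intron. For miR-711 they were miR-514b-5p (0.97), miR-3202 (0.94) and miR-483-5p (0.94). For miR-601 they were miR-134-5p (0.97), which comes from an imprinted miRNA cluster, miR-1207-5p (0.94) and miR-520b (0.94). The closest to miR-1226-5p was also miR-134-5p (0.94), then miR-188-5p (0.92) and miR-601 itself (0.91). These arrays share dose, slide and scaling. At 10 Gy miR-516a-5p differed from 0 Gy by 0.67 and miR-134-5p by 0.52, and neither passed (limma adjusted p = 0.0822 and 0.0552).

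Other miRNAs that come from short introns and have been listed as mirtrons, like miR-1226-5p, were read beside it. Not every one of them is known to need splicing. Of 23 such names 17 were on the array and 12 were tested. At 10 Gy 0 of the 12 were called in limma, against 0.353% of all 283, with a median difference of -0.01, and the 4 of largest size were miR-1234-3p (-0.46, adjusted p = 0.192), miR-1228-5p (-0.34, 0.404), miR-1229-3p (0.24, 0.482) and miR-1224-5p (0.18, 0.310). At 6 Gy 0 were called, against 19.4% of all, with a median of 0.19. At 2 Gy 1 was called, against 12.7% of all: miR-1224-5p was higher by 0.36 (limma adjusted p = 0.0333), with a list median of 0.13. The medians over all 283 miRNAs were 0.12 at 6 Gy and 0.03 at 2 Gy. The difference between miR-1226-5p and the other mirtrons was not tested.

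Markers of the cells were read beside these results. Of 10 miRNAs of colorectal epithelium 7 were detected on at least 1 array, including miR-200c-3p, miR-141-3p, miR-21-5p and miR-31-5p, and the intestinal miR-192-5p, miR-194-5p and miR-215-5p were detected on none. The mean level of these 4 tested ones ranged from -3.32 to -0.33 in the cultures at 0 Gy, from -3.79 to -1.46 at 2 Gy, from -4.60 to -2.70 at 6 Gy and from -3.35 to -1.69 at 10 Gy. Of the 4, miR-21-5p, an abundant miRNA of tumour cells, was called lower at 2 Gy (-2.79, adjusted p = 0.0225 in limma) and at 6 Gy (-2.72, adjusted p = 0.0304), and 0 were called at 10 Gy. miR-21-5p and miR-31-5p were detected on 11 of the 16 arrays, and miR-200c-3p and miR-141-3p on 15. The -4.60 at 6 Gy is the floor itself, so the sizes of these falls depend on it. The calls are also tied to the filter, which such miRNAs passed through the doses where they were detected. Over all 283 miRNAs the shares called were 12.7% at 2 Gy, 19.4% at 6 Gy and 0.353% at 10 Gy. Of 9 blood and liver miRNAs that serum can carry, 3 were detected on any array. The blood cell markers miR-451a, miR-144-3p, miR-223-3p, miR-142-3p and miR-150-5p were detected on none, and neither was miR-126-3p. The liver miR-122-5p was detected on 4 arrays and not tested. The mean level of the 2 tested, miR-486-5p and miR-155-5p, ranged from -3.44 to -3.31 at 0 Gy, from -3.28 to -3.14 at 2 Gy, from -3.22 to -3.01 at 6 Gy and from -3.10 to -3.05 at 10 Gy, higher in every irradiated culture than in any unirradiated one. Taken singly, 7.07%, 5.65% and 9.89% of all tested miRNAs stood so apart at 2, 6 and 10 Gy. The share doing so at all 3 doses was not counted. miR-155-5p was called higher at 6 Gy (0.31, adjusted p = 0.0407 in limma), where 19.4% of all were called, and neither was called at 2 or 10 Gy. The part of both lists in the results for the 4 miRNAs was not tested.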

How the data were processed

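Per the labels' protocols, RNA was extracted from supernatant (ISOGEN), and Cy3 labelling used 100 ng of it. Each deposited file is 1 array read with Feature Extraction 11.5.1.1, whose processed signal is an intensity after background subtraction, not scaled across arrays (per the file headers). The deposited flags mark outlier, saturated (0 spots) and detected spots, per the file headers.

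Control and outlier spots (3.27 to 4.90% per array) were left out and a probe's spots averaged. Detection of a probe needed a share over 0.5 of its spots flagged well above background. Signals were scaled to an array's own 75th percentile among 518 probes that all arrays detected, a floor was set (5th percentile of detected probes), and log2 was taken. A miRNA was tested if a probe was detected on all 4 arrays of a dose, as the mean over such probes (592 probes, 283 miRNAs). limma 3.58.1 in R 4.3.3 fitted a mean per dose over 16 arrays, with Benjamini-Hochberg adjustment over the 283 miRNAs. The number of arrays limits the precision. Correlations carried p-values from 100000 permutations. Figures used matplotlib 3.10.9. The fit was tested on simulated data. Alternatives changed the scaling, background correction, floor, filter, probe summary, covariate or block, or left arrays out.

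The members and lists were chosen with earlier results of these data known. Named besides the 4 are the miRNAs at the edge of the selection, the 3 most correlated per member, up to 4 mirtrons with the largest 10 Gy difference, and markers. Array names are those of the human design, and mature sequences were not used here. The series' design text lists 0, 6 and 10 Gy and states independent cultures; the 2 Gy group comes from the samples' labels.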

Additional observations from a re-analysis of the deposited data

Results flagged for a closer look

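miR-601 at 0 Gy in replicate 1 had a level of -0.49, far below the -0.03 to 0.01 of the other 3 cultures of that dose. Its gap to the nearest culture was 0.926 of the range of the 4, above Dixon's 95% critical value for groups of that size. It was 1 of 16 groups of 4 cultures that were checked, and chance puts about 1 in 20 above that value. Without this array the miR-601 differences from 0 Gy were 0.33 at 2 Gy, 0.36 at 6 Gy and 0.32 at 10 Gy.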

How the results depend on the processing

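All 12 differences from 0 Gy stayed above 0 under each of the 30 (2 Gy) or 29 (6 and 10 Gy) alternatives run. At 2 and 6 Gy this sign was fixed in part by the choice of the miRNAs, and 10 Gy shares its 0 Gy arrays. How many other miRNAs kept their sign was not counted. With scaling over all probes they were 1.22, 0.99, 0.84 and 0.87 at 2 Gy for miR-765, miR-711, miR-601 and miR-1226-5p, 0.99, 1.03, 0.86 and 0.78 at 6 Gy, and 0.79, 0.65 and 0.65 at 10 Gy for miR-765, miR-601 and miR-1226-5p, which then passed. The median of all miRNAs was then 0.40, 0.47 and 0.18 at 2, 6 and 10 Gy. With quantile normalization miR-765, miR-711 and miR-1226-5p were at 1.02, 0.88 and 0.66 at 2 Gy and miR-1226-5p at 0.63 at 6 Gy, and at 10 Gy miR-765 (0.70), miR-601 (0.50) and miR-1226-5p (0.59) passed. Without scaling miR-601 and miR-1226-5p were at 0.73 and 0.65 at 6 Gy. With normexp miR-765 and miR-711 were at 0.60 and 0.15 at 2 Gy and miR-711 at 0.14 at 6 Gy.

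At 10 Gy miR-601 and miR-1226-5p also passed with the brightest probe (0.48 each), a floor at the 1st percentile (0.45 each), probes detected on all arrays (0.45 each) and the slide row as a block (0.45 each). With the spike-in covariate all 4 passed (0.63, 0.52, 0.47 and 0.46), and without replicate 3 at 0 Gy and replicate 2 at 2 Gy together, chosen after seeing the data, they were at 0.65, 0.61, 0.50 and 0.44 and passed. With the replicate number as a block miR-1226-5p passed at 10 Gy (0.45, adjusted p = 0.0360) and no other call on the 4 at 10 Gy, against 0 or 6 Gy, changed. Nothing in the labels pairs cultures by number: deviations of same-numbered arrays correlated at -0.76 to 0.87 over 24 pairs (median 0.31, against -0.31 over 72 pairs of different number), those of number 2 at 0.59 to 0.87. These were deviations from dose means, which ties the values for same and different numbers to each other. The -0.31 is therefore no independent reference. With the block 68, 75 and 7 of 283 miRNAs were called at 2, 6 and 10 Gy, against 36, 55 and 1 without it.

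With 1 array left out, the ranges were 0.73 to 0.89, 0.54 to 0.76, 0.33 to 0.50 and 0.42 to 0.54 at 2 Gy for the 4 in the same order, 0.43 to 0.71, 0.51 to 0.81, 0.36 to 0.53 and 0.34 to 0.47 at 6 Gy, and 0.48 to 0.68, 0.39 to 0.61, 0.32 to 0.50 and 0.39 to 0.52 at 10 Gy. At 10 Gy the adjusted p of miR-601 and miR-1226-5p passed without replicate 2 at 0 Gy too (0.0466 each), and that of miR-1226-5p without replicate 3 at 2 Gy (0.0426) or replicate 1 or 3 at 6 Gy (0.0272 and 0.0417). Between 10 and 6 Gy the ranges were -0.13 to 0.14, -0.28 to -0.06, -0.08 to -0.0037 and -0.029 to 0.087, with no call, and the sign turned without replicate 4 at 6 Gy or replicate 2 at 10 Gy for miR-765 and without replicate 1 at 6 Gy for miR-1226-5p. It also turned for miR-1226-5p with scaling over all probes (-0.12), no scaling (-0.43), quantile normalization (-0.048) and Agilent's total signal (-0.070), and for others with normexp (0.0049 for miR-765, 0.10 for miR-711) and the spike-in covariate (0.18 for miR-765, 0.074 for miR-711, 0.062 for miR-601). The causes were not tested. Over all miRNAs the alternatives called 0 to 187 at 2 Gy, 0 to 205 at 6 Gy, 0 to 120 at 10 Gy and 0 or 1 between 10 and 6 Gy, against 36, 55, 1 and 0. Without any filter, 80.0% of values lay at the floor.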
